A study of Mus musculus with 6 samples.

Results

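Chemokine ligands and chemokine receptors were read from a comparison of mouse ileal crypts, the epithelial pits of the last stretch of the small intestine. Members were the genes whose symbols carry the standard chemokine or receptor stems followed by a number, and there were 61 of them among the 55446 genes of the authors' deposited table. The name pattern also met 2 Ccl19 pseudogenes, both listed at 0 in both conditions, which were left out. Of the 61 members, 38 encode ligands and 23 encode receptors, and the authors tested 23 of the ligands and 8 of the receptors.

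The samples were 3 libraries from Adar iΔgut mice, which carry Adar fl/fl alleles and the VilCreERt2 transgene, and 3 libraries from Adar fl/fl mice without the transgene, which the labels also call WT. Tamoxifen was given to both genotypes and the crypts were taken at day 3. The villin promoter drives this tamoxifen-activated Cre in the intestinal epithelium, so other cells keep their floxed alleles. The sources used here do not give age, sex or strain. ADAR edits adenosine to inosine in double-stranded RNA, and the series asked what its loss does to innate immunity in the gut.

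The authors' deposited table has 1 pooled FPKM per gene (a count of fragments divided by transcript length and by the size of the library) for a condition TMX and 1 for a condition con, with their p-value and q-value and without a value per library. No standard deviation can therefore be given, and sequencing depth is unknown. TMX is read here as Adar iΔgut and con as Adar fl/fl, but the table does not state this, and Adar itself was at 52.0 FPKM in TMX and 19.5 FPKM in con (q-value 0.0575 per the authors' deposited table). Because that goes against the reading, all directions are given for the library groups under their deposited names, TMX and con. Epithelial markers were abundant in both, with Epcam at 372 FPKM in TMX and 869 FPKM in con and Vil1 at 224 FPKM in TMX and 467 FPKM in con per the authors' deposited table.

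Chemokines are small secreted proteins that guide leukocytes along concentration gradients by binding receptors coupled to heterotrimeric G proteins. Atypical receptors bind the same ligands without that coupling and remove or transport them. In the small intestine, epithelial CCL25 and CCL28 draw lymphocytes and antibody-secreting cells to the mucosa in the steady state, whereas CXCR2 ligands and CCR2 ligands are known for bringing neutrophils and monocytes to inflamed tissue.

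The upstream sequences of 6 ligand genes are printed as a description, and no call or FPKM rests on them. Cxcl1, Cxcl2 and Cxcl3 are neighbours in 1 chromosomal block. Cxcl10 and Cxcl9 are neighbours whose calls differ below, and Ccl20 is an inducible ligand of epithelium. The windows are the 250 bases before the annotated start, in RefSeq's sequence of build GRCm38.p6, on each gene's own strand. Capitals mark matches on either strand to the classical NF-kB consensus or to GAAANNGAA, used for the core of the interferon-stimulated response element. Matches to the first on opposite strands can overlap, and no match to one overlaps a match to the other in these 6 windows. The windows are chr5:90890995-90891244 (plus strand) for Cxcl1, chr5:90903649-90903898 (plus strand) for Cxcl2, chr5:90785851-90786100 (plus strand) for Cxcl3, chr5:92348890-92349139 (minus strand) for Cxcl10, chr5:92328080-92328329 (minus strand) for Cxcl9 and chr1:83116516-83116765 (plus strand) for Ccl20.
Cxcl1: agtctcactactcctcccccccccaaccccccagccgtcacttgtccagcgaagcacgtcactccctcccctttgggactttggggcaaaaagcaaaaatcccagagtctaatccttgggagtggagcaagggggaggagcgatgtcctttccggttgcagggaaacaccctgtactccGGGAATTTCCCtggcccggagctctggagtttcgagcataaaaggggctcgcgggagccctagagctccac
Cxcl2: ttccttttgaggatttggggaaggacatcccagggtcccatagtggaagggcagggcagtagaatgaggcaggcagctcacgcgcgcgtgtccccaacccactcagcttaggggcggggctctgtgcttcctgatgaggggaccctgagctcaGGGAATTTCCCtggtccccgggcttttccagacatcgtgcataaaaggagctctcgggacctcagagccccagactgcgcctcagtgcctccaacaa
Cxcl3: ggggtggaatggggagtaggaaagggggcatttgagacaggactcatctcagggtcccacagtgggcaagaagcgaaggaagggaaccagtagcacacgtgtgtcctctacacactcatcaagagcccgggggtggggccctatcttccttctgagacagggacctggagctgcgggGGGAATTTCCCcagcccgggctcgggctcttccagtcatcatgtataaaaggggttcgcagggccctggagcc
Cxcl10: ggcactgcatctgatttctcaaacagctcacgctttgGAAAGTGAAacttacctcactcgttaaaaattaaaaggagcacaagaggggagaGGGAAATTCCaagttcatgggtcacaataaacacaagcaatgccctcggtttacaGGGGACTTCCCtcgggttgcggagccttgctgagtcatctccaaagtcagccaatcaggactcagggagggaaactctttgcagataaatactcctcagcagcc
Cxcl9: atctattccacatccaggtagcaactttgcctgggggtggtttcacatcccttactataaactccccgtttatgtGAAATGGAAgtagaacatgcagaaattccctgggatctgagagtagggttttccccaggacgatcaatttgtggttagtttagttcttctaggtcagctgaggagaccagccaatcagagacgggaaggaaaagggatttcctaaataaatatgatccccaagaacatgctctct
Ccl20: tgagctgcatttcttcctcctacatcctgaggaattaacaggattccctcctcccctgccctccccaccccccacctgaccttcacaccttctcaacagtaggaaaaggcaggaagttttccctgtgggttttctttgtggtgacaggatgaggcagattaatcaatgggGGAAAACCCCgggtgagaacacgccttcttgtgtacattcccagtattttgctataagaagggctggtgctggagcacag

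The windows of Cxcl1, Cxcl2 and Cxcl3 share the run GGGAATTTCCC, their longest common stretch at 11 bases. It begins 71 bases before the start of Cxcl1, 97 bases before that of Cxcl2 and 73 bases before that of Cxcl3, and 12 of 32851 windows in the RefSeq table hold it. The Cxcl10 window holds NF-kB matches beginning 159 and 104 bases before the start, and a match to the response element letters beginning 213 bases before it. The Cxcl9 window holds 1 match to the response element letters, beginning 175 bases before the start, and none to the NF-kB consensus. Windows were found for 46 of the 61 members, some with more than 1 start, and 11 of these 53 windows had an NF-kB match, against 7.25% of all windows. No window was found for Ccl2, Ccl7, Cxcl5, Cxcl11 and Cxcl16, which are 5 of the 12 members called higher in TMX. For the response element letters it was 8 of 53 windows, against 7.13% of all windows. A match is a description of letters and not a measured binding site, and its part in any FPKM or call was not tested.

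Calls were more frequent among the tested members than among all tested genes. The authors' deposited table calls 16 of the 31 tested members at a q-value under 0.05, which is 51.6%, beside 12.3% of the 15762 genes tested. Of these, 12 members were higher in TMX, where the background is 6.6%, and 4 were lower, where it is 5.7%. At an unadjusted p-value under 0.05 the counts were 14 higher and 4 lower, where the backgrounds were 12.1% and 10.7%. The median deposited log2 fold change (TMX over con, after adding 1 to each FPKM) was 1.21 for the 31 members and 0.05 for all tested genes. Genes could be tested only where the signal was high enough in a condition, so these shares say nothing of the 30 untested members. The 4 tested members listed at 0 in con reached testing through TMX alone. Others were near 0 in con and probably did so too, among them Cxcl2 (0.0164 FPKM), Cxcr2 (0.0585 FPKM), Ackr3 (0.158 FPKM) and Ccr2 (0.264 FPKM). Such genes had little room to come out lower, which weakens the count called higher and the median as support. Over all 61 members, tested or not, the median was 0.10. Mean FPKM includes TMX, so grouping by it does not remove the dependence on TMX. Within each range of mean FPKM, the share called exceeded its background. It was 40.0% of the 5 members with a mean under 1 FPKM (all tested genes 10.2%), 47.1% of the 17 from 1 to 10 FPKM (10.7%) and 66.7% of the 9 at 10 FPKM or more (15.1%).

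**Figure D1:**
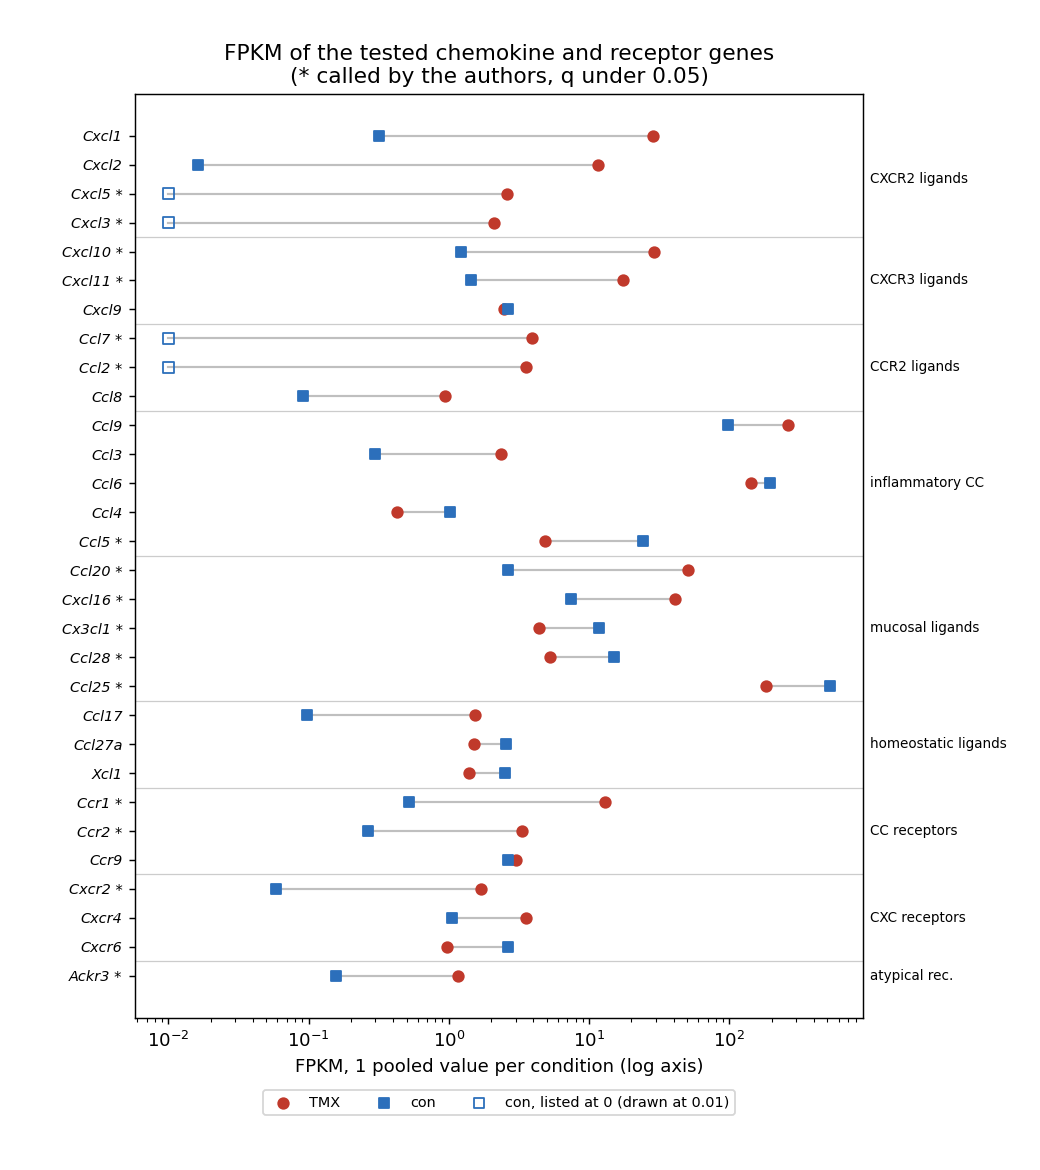
FPKM of 30 tested members on a log axis, with TMX as circles and con as squares, 1 pooled value each, grouped by role. Asterisks mark genes called by the authors, and 4 genes listed at 0 in con are drawn as open squares at 0.01, below every measured value.

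The ligands of CXCR2, the main attractant receptor of neutrophils, were low or listed at 0 in con. The 4 genes Cxcl1, Cxcl2, Cxcl3 and Cxcl5 summed to 44.9 FPKM in TMX and 0.336 FPKM in con. The authors' deposited table calls 2 of them higher (50% called, against 12.3% of all tested genes). Cxcl5 (GRCm38 chromosome 5, 90759360 to 90761624, plus strand) rose, at 2.62 FPKM in TMX and listed at 0 in con, and Cxcl3 rose, at 2.09 FPKM in TMX and also listed at 0 in con, both with the q-value 0.00112 per the authors' deposited table. Cxcl1, whose product is also called KC, had far larger values at 28.6 FPKM in TMX and 0.320 FPKM in con, an 89.5-fold ratio, yet a q-value of 0.554 per the authors' deposited table. Cxcl2, or MIP-2, was at 11.5 FPKM in TMX and 0.0164 FPKM in con with a q-value of 0.566 per the authors' deposited table. The spread between libraries is not in the table, so the lack of a call for Cxcl1 and Cxcl2 cannot be followed to single libraries. Of 145 tested genes listed at 0 in con, the authors' deposited table calls 67 higher, or 46.2%, against 6.6% of all tested genes, and it calls all 4 tested members listed at 0 in con.

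Beside these ligands, the neutrophil markers other than Cxcr2 summed to 231 FPKM in TMX and 2.46 FPKM in con over 12 genes, of which 2 of 8 tested were called higher (25% called, against 12.3% of all tested genes). Both called genes, Ly6g and Ngp, were listed at 0 in con, so they were tested through TMX alone and could not come out lower. Of all tested genes listed at 0 in con, 46.2% were called. Ly6g stood at 36.2 FPKM in TMX, was listed at 0 in con per the authors' deposited table and was called higher. S100a8 at 104 FPKM in TMX and 0.0559 FPKM in con and S100a9 at 72.1 FPKM in TMX and 0.402 FPKM in con, calprotectin subunits, made up most of the sum in TMX and were not called (q-values 0.547 and 0.553 per the authors' deposited table). Genes of granule proteins, made while neutrophils mature, were mixed. Ngp was called higher, at 0.730 FPKM in TMX and listed at 0 in con per the authors' deposited table. Ltf, at 3.09 FPKM in TMX and 1.47 FPKM in con, and Mmp8, at 3.27 FPKM in TMX and 0.0145 FPKM in con, were not called per the authors' deposited table. Mpo, at 0.0461 FPKM in TMX and listed at 0 in con, was untested, as was Mmp9 at 0.415 FPKM in TMX and 0.286 FPKM in con, and Elane and Camp were listed at 0 in both, per the authors' deposited table. The part of neutrophils in the ligand values was not tested. In bulk crypts, fewer cells of a type and less RNA per cell cannot be told apart, nor can more cells and more RNA.

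The interferon-induced ligands of CXCR3, a receptor of activated T and NK cells, differed among themselves although they lie side by side within 44.1 kb of chromosome 5. Cxcl10 (GRCm38 chromosome 5, 92346638 to 92348889, minus strand) rose to 28.8 FPKM in TMX, against 1.23 FPKM in con, a 23.5-fold ratio with a q-value of 0.0360 per the authors' deposited table. Cxcl11 rose to 17.4 FPKM in TMX, against 1.44 FPKM in con, with the q-value 0.00112 per the authors' deposited table, and the annotation classes this gene as a polymorphic pseudogene. Cxcl9, the third of the trio and classically a target of interferon-gamma, was at 2.46 FPKM in TMX and 2.64 FPKM in con with a q-value of 0.972 per the authors' deposited table. Thus 2 of the 3 neighbours rose (66.7% called, against 12.3% of all tested genes) and the third differed by less than 0.1 on the log2 scale. Art3 overlaps both Cxcl10 and Cxcl11 on the opposite strand, at 0.718 FPKM in TMX and 0.284 FPKM in con per the authors' deposited table, well below either. The receptor Cxcr3 was not tested, at 0.170 FPKM in TMX and 0.202 FPKM in con per the authors' deposited table.

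Of 3 tested ligands grouped here as monocyte attractants, 2 were called higher in TMX (66.7% called, against 12.3% of all tested genes). Ccl2, or MCP-1 (GRCm38 chromosome 11, 82035571 to 82037453, plus strand), rose, at 3.57 FPKM in TMX and listed at 0 in con, and its neighbour Ccl7, or MCP-3, rose, at 3.94 FPKM in TMX and listed at 0 in con, both with the q-value 0.00112 per the authors' deposited table. Ccl8 was at 0.937 FPKM in TMX and 0.0911 FPKM in con with a q-value of 0.505, and Ccl12 was untested at 0.528 FPKM in TMX and 0.0568 FPKM in con, per the authors' deposited table. The receptor gene paired here with Ccl2, Ccl7 and Ccl12, but not with Ccl8, is Ccr2 (GRCm38 chromosome 9, 124101950 to 124113557, plus strand), which marks classical monocytes. Ccr2 rose to 3.31 FPKM in TMX, against 0.264 FPKM in con, a 12.6-fold ratio with a q-value of 0.00281 per the authors' deposited table. So 2 ligands and the receptor of this axis were all higher in TMX. However, the 2 ligands, listed at 0 in con, could not come out lower, and Ccr2 had little room to.

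Inflammatory CC ligands went different ways. Ccl5, or RANTES, which T and NK cells make in quantity, fell to 4.88 FPKM in TMX, against 24.1 FPKM in con, 4.94-fold lower with a q-value of 0.00200 per the authors' deposited table. T and NK cell markers were lower beside it, summing to 60.6 FPKM in TMX and 353 FPKM in con over 15 genes, with 6 of 13 tested called lower and none higher (46.2% called, against 12.3% of all tested genes). Gzma, which was called, made up most of both sums, at 40.4 FPKM in TMX and 270 FPKM in con per the authors' deposited table. The part of these cells in the Ccl5 value was not tested. Ccl3, or MIP-1alpha, was at 2.34 FPKM in TMX and 0.297 FPKM in con with a q-value of 0.0775, and Ccl4, or MIP-1beta, at 0.427 FPKM in TMX and 1.02 FPKM in con with a q-value of 0.598, per the authors' deposited table. Neither was called, and the pair differed in sign.

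Ccl9 and Ccl6, CCR1 ligands of rodents, were abundant in both conditions without a call. The authors' deposited table lists Ccl9 at 261 FPKM in TMX and 98.4 FPKM in con (q-value 0.393) and Ccl6 at 142 FPKM in TMX and 194 FPKM in con (q-value 0.563). By level, Ccl9 was the highest ligand in TMX and the third in con. CCR1 itself, a receptor of monocytes and neutrophils, was low in con: Ccr1 (GRCm38 chromosome 9, 123962124 to 123968692, minus strand) rose to 12.9 FPKM in TMX, against 0.523 FPKM in con, a 24.7-fold ratio with the q-value 0.00112 per the authors' deposited table. That made it the highest receptor in TMX, while it was the fifth in con.

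Monocyte and macrophage markers other than Ccr2 and Cx3cr1 summed to 204 FPKM in TMX and 11.3 FPKM in con over 14 genes, with 9 of 13 tested called higher and none lower (69.2% called, against 12.3%). Lyz2, a lysozyme of myeloid cells, was at 135 FPKM in TMX and 4.20 FPKM in con per the authors' deposited table. None of these 14 genes was listed at 0 in either condition. Some called ones were near 0 in con, such as Adgre1 at 0.0674 FPKM per the authors' deposited table, with little room to come out lower. The part of such cells in the values of Ccl2, Ccl7, Ccr1 and Ccr2 was not tested.

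**Figure D2:**
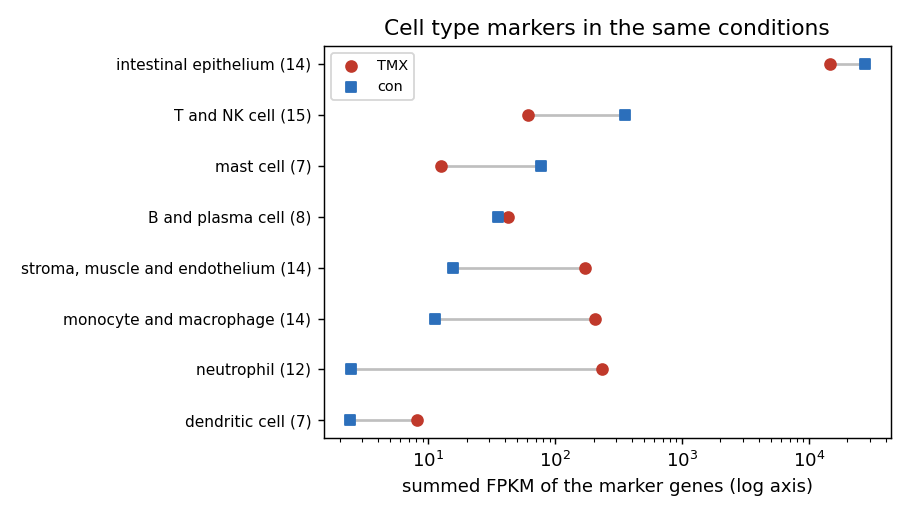
Summed FPKM of 8 lists of cell type markers on a log axis, chemokine and receptor genes left out, with TMX as circles, con as squares and the number of genes in brackets. Neutrophil markers sum to 231 FPKM in TMX and 2.46 FPKM in con, mostly from the uncalled S100a8 and S100a9 in TMX. T and NK cell markers sum to 60.6 FPKM in TMX and 353 FPKM in con, mostly from Gzma in both.

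Mucosal and epithelial ligands were called in both directions. Of 8 listed, 5 were tested, and the authors' deposited table calls 2 of them higher and 3 lower (100% called, against 12.3% of all tested genes). Ccl20 (GRCm38 chromosome 1, 83116766 to 83119167, plus strand), the ligand of CCR6 and an inducible product of epithelium, rose to 50.4 FPKM in TMX, against 2.65 FPKM in con, a 19.0-fold ratio with the q-value 0.00112 per the authors' deposited table. Cxcl16, a membrane-bound ligand of CXCR6, rose to 41.2 FPKM in TMX, against 7.49 FPKM in con, a 5.50-fold ratio at the same q-value per the authors' deposited table. Zmynd15 overlaps Cxcl16 on the opposite strand and was at 1.69 FPKM in TMX and 0.0751 FPKM in con per the authors' deposited table. In both conditions Ccl20 and Cxcl16 stood above the receptors Ccr6 and Cxcr6, whose values are given further on.

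The steady-state attractants fell by similar ratios. Ccl25 (GRCm38 chromosome 8, 4325210 to 4360020, plus strand), which recruits CCR9-bearing T cells to the small intestine, fell to 182 FPKM in TMX, against 523 FPKM in con, 2.88-fold lower with a q-value of 0.0385 per the authors' deposited table. Ccl28 (GRCm38 chromosome 13, 119623819 to 119654359, plus strand), a mucosal ligand of CCR10 and CCR3, fell to 5.26 FPKM in TMX, against 15.1 FPKM in con, also 2.88-fold lower with a q-value of 0.00424 per the authors' deposited table. Cx3cl1, or fractalkine, a tethered ligand of CX3CR1 on macrophages, fell to 4.39 FPKM in TMX, against 11.8 FPKM in con, 2.68-fold lower with a q-value of 0.0411 per the authors' deposited table. Epithelial markers summed to 14545 FPKM in TMX and 27420 FPKM in con over 14 genes, with 2 called lower and none higher (14.3% called, against 12.3% of all tested genes). The 2 called were Olfm4, at 18.2 FPKM in TMX and 277 FPKM in con, and Alpi, at 11.6 FPKM in TMX and 80.5 FPKM in con, per the authors' deposited table. Epcam and Vil1, whose values are given above, were not called. Most of both sums came from Defa24, Lyz1 and Fabp2, none of them called. Fabp2 was at 2213 FPKM in TMX and 9384 FPKM in con, and Muc2 at 252 FPKM in TMX and 262 FPKM in con, per the authors' deposited table. All 14 had lower FPKM in TMX, and the part of epithelial cells in these falls was not tested. Elavl1 overlaps Ccl25 on the opposite strand, at 15.9 FPKM in TMX and 14.5 FPKM in con per the authors' deposited table.

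Because FPKM is a level per length, the ligand genes can be set beside each other. All 38 ligands summed to 803 FPKM in TMX and 889 FPKM in con. Ccl25 supplied 22.6% of that sum in TMX and 58.8% in con, Ccl9 32.6% in TMX and 11.1% in con, and Ccl6 17.7% in TMX and 21.8% in con. These 3 were the top ligands of both conditions, and the other 35 ligands together summed to 218 FPKM in TMX and 74.2 FPKM in con. Ccl20 was the fourth ligand in TMX and the eighth in con, while Ccl5 was the eleventh in TMX and the fourth in con. With 1 pooled value per condition, the spread of these ranks and shares is unknown.

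**Figure D3:**
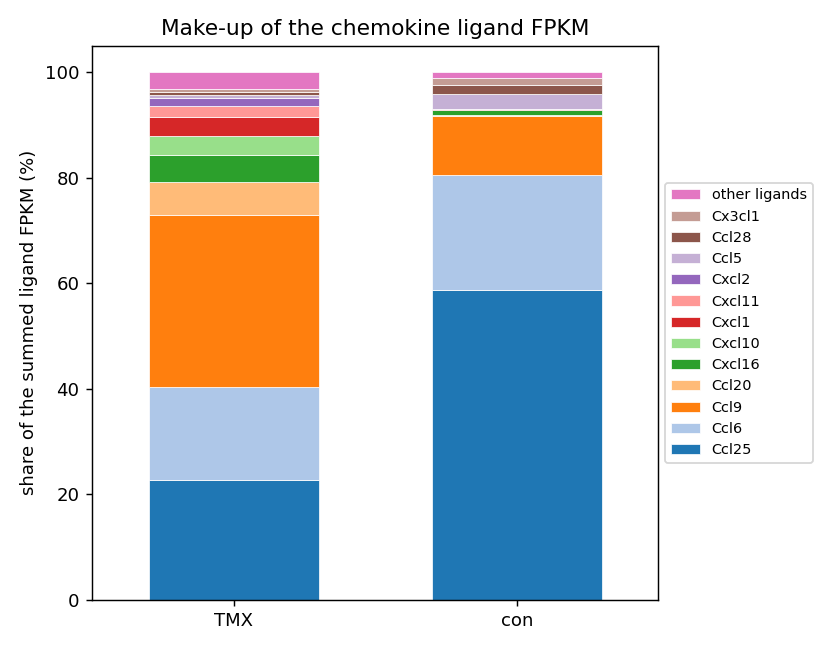
Share of the summed FPKM of 38 ligand genes held by each of 12 ligands and by all others, with TMX on the left and con on the right (bars add to 100%). Ccl25 takes 22.6% in TMX and 58.8% in con, and Ccl9 takes 32.6% in TMX and 11.1% in con.

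Homeostatic and lymphoid ligands gave no call among 3 tested of 11 listed, beside 12.3% of all tested genes called. With so few genes, that is not set apart from the share over all genes. Ccl17, a CCR4 ligand made by dendritic cells, was at 1.53 FPKM in TMX and 0.0967 FPKM in con with a q-value of 0.471 per the authors' deposited table. Ccl27a, a CCR10 ligand, was at 1.52 FPKM in TMX and 2.56 FPKM in con with a q-value of 0.642, and Xcl1, the ligand of XCR1 on cross-presenting dendritic cells, at 1.38 FPKM in TMX and 2.50 FPKM in con with a q-value of 0.762, per the authors' deposited table. Il11ra1 overlaps Ccl27a on the opposite strand at 3.97 FPKM in TMX and 3.76 FPKM in con per the authors' deposited table, above Ccl27a itself, so that value is uncertain. The B cell attractant Cxcl13 was untested at 0.537 FPKM in TMX and 0.447 FPKM in con per the authors' deposited table.

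Of 8 tested receptors, 4 were higher in TMX and none lower (50% called, against 12.3% of all tested genes), with a median log2 fold change of 1.02. All 4 called receptors were at 0.523 FPKM or less in con, below the 0.537 FPKM of an untested member, per the authors' deposited table. They were probably tested through TMX and had little room to come out lower, so the lack of lower calls among receptors says little. Cxcr2 rose to 1.68 FPKM in TMX, against 0.0585 FPKM in con, a 28.8-fold ratio with a q-value of 0.0163 per the authors' deposited table. Ackr3, an atypical receptor that scavenges CXCL11 and CXCL12, rose to 1.16 FPKM in TMX, against 0.158 FPKM in con, with a q-value of 0.0453 per the authors' deposited table. Cxcr4, the signalling receptor for CXCL12, was at 3.52 FPKM in TMX and 1.06 FPKM in con with a q-value of 0.0518 per the authors' deposited table. These last 2 genes lie on either side of the threshold of 0.05 with p-values of 0.00540 and 0.00645 per the authors' deposited table. The stromal, muscle and endothelial markers, cells in which Ackr3 is also known, summed to 170 FPKM in TMX and 15.5 FPKM in con over 14 genes. Of 12 tested, 6 were called higher (50% called, against 12.3%). Dcn and Col3a1, both called, made up most of both sums. None of the muscle genes Acta2, Myh11 and Des was called. Acta2, at 0.753 FPKM in TMX and 0.775 FPKM in con per the authors' deposited table, was the only tested gene of the list lower in TMX. The part of such cells in the Ackr3 value was not tested.

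Receptors of mucosal lymphocytes gave no call. Ccr9, the receptor for CCL25, was at 3.01 FPKM in TMX and 2.64 FPKM in con with a q-value of 0.964, and Cxcr6, the receptor for CXCL16, at 0.966 FPKM in TMX and 2.66 FPKM in con with a q-value of 0.763, per the authors' deposited table. Ccr9 and Cxcr6 were placed by the authors in 1 merged locus that also holds Slc6a20a, Lztfl1 and Fyco1, which overlap them on the opposite strand. Slc6a20a was at 3.65 FPKM in TMX and 54.1 FPKM in con, and Fyco1 at 10.7 FPKM in TMX and 9.67 FPKM in con, per the authors' deposited table, so the low values of Ccr9 and Cxcr6 are uncertain.

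Ligands and their receptors did not move as pairs throughout. Cxcr2 and Ccr2 were called higher, each with 2 of its ligand genes called higher and none lower, and Ackr3 was called higher with Cxcl11. The ligand genes called with Cxcr2 and Ccr2 are the 4 tested members listed at 0 in con. They were tested through TMX alone and could not come out lower, so they add little to these 2 pairings. The receptors Cxcr2 and Ccr2, at 0.0585 and 0.264 FPKM in con, had little room to come out lower either. Ccr1 was called higher too, but of the 5 ligands listed for it Ccl7 rose, Ccl5 fell and the other 3 were not called. For CCL25 and CCR9 the ligand fell and the receptor was not called, and for CXCL16 and CXCR6 the ligand rose and the receptor was not called. Cxcr3, the receptor for the called CXCL10 and CXCL11, was untested, as given above. The partners of 3 other called ligands were also untested per the authors' deposited table, with Ccr6 (for CCL20) at 0.382 FPKM in TMX and 0.289 FPKM in con, Cx3cr1 (for CX3CL1) at 0.271 FPKM in TMX and 0.0842 FPKM in con, and Ccr10 (for CCL28) at 0.0518 FPKM in TMX and listed at 0 in con. These untested partners were chosen for mention after their values were seen.

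**Figure D4:**
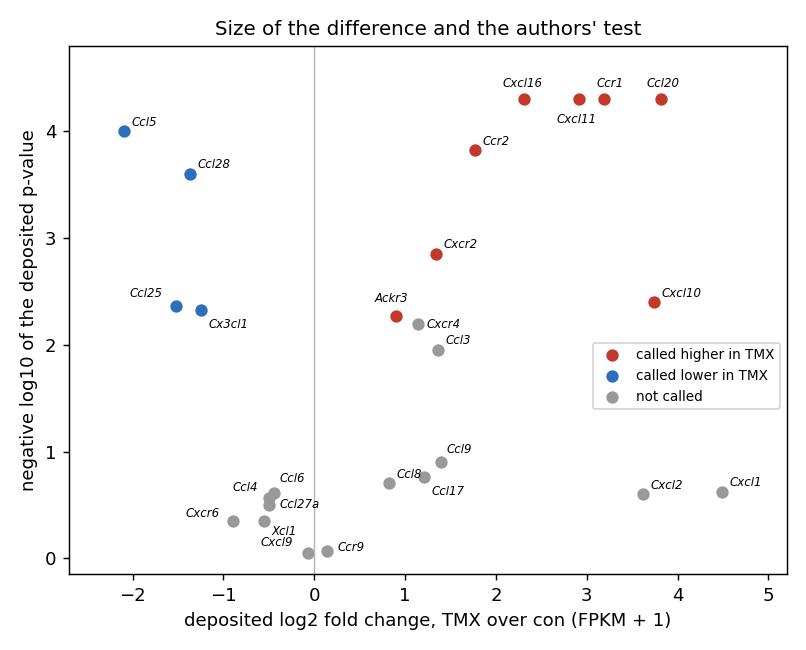
Deposited log2 fold change of TMX over con (horizontal) and negative log10 of the deposited p-value (vertical) for 26 tested members not listed at 0 in con. Cxcl1 and Cxcl2 lie far to the right with p-values of 0.239 and 0.250, while the 8 members called higher and 4 called lower lie above.

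Many members are neighbours on a chromosome, and neighbours did not all move together. In the 146.6 kb of chromosome 5 from Cxcl5 to Cxcl2, the 4 CXCR2 ligands among the members had higher FPKM in TMX. Cxcl15, a further member between them, was listed at 0 in both conditions per the authors' deposited table. Genes outside the naming scheme were not placed in these blocks. In the chromosome 11 block from Ccl2 to Ccl1, Ccl2 and Ccl7 rose and the other 4 were not called or not tested. In the second chromosome 11 block, Ccl5 fell while Ccl9, Ccl6, Ccl3 and Ccl4 gave no call. In the receptor block of chromosome 9, Ccr1 and Ccr2 rose, and Ccr9 and Cxcr6 gave no call. On chromosome 8, Cx3cl1 fell with Ccl22 and Ccl17 on its sides untested or not called. Ccl19, Ccl21a, Ccl21b, Ccl27a and Ccl27b have near-identical copies on chromosome 4, and the sources used here do not say how shared reads were divided, so their values are uncertain.

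**Figure D5:**
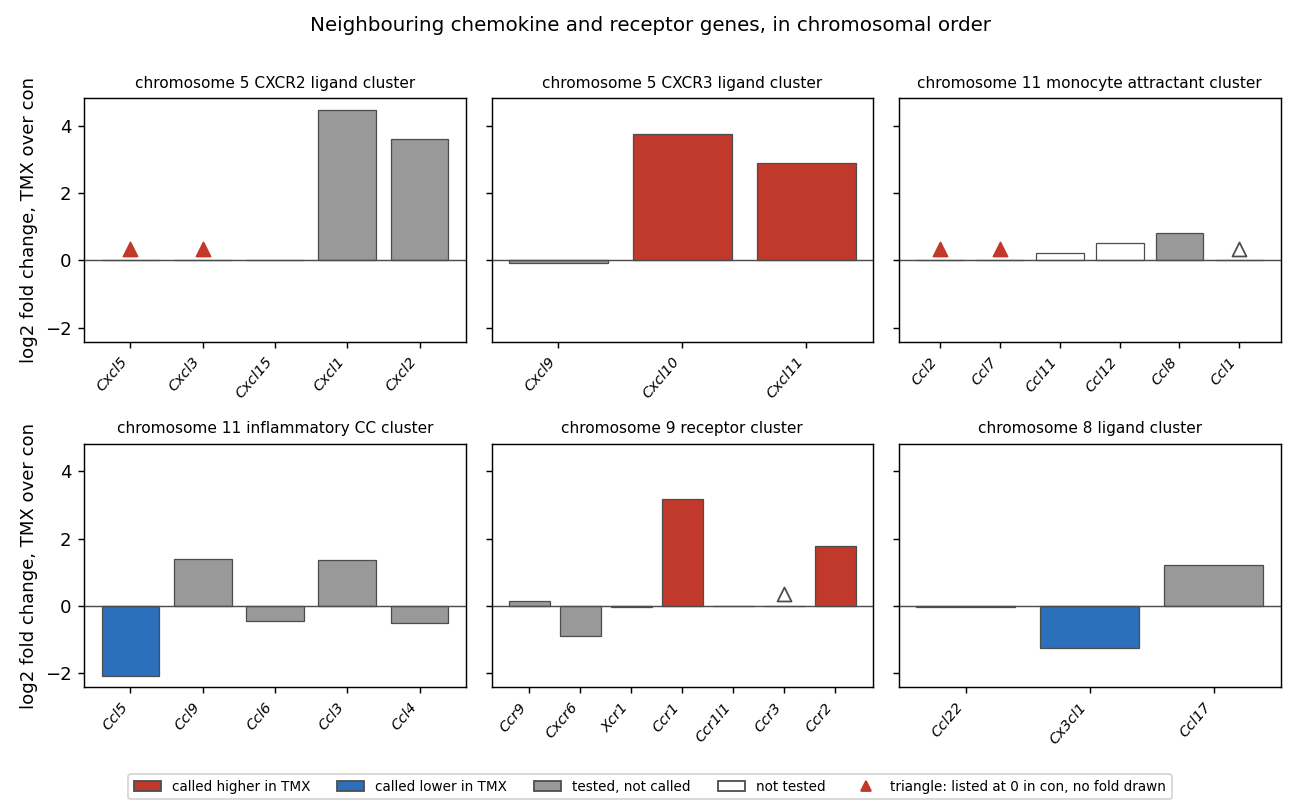
Log2 fold change of TMX over con (FPKM + 1) for members reported in 6 chromosomal groups, in order along the chromosome, coloured by the authors' call. Triangles mark genes listed at 0 in con but not in TMX, for which no fold is drawn. Cxcl15 and Ccr1l1, listed at 0 in both conditions, show neither a triangle nor a visible bar. Cxcl9 stays near 0 beside Cxcl10 and Cxcl11.

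The remaining 30 members were not tested. Of these, 27 stayed below 0.5 FPKM in both conditions and 8 were listed at 0 in both. The 3 that reached 0.5 FPKM were Ccl12 and Cxcl13, given above, and the scavenger receptor gene Ackr4, at 0.527 FPKM in TMX and 0.506 FPKM in con per the authors' deposited table. Listed at 0 in both were Cxcl15, Cxcl17, Ccl19, Ccl21b, Ccl26, Ccl27b, Ccr1l1 and Ackr1, several of which belong to lymphoid tissue, lung or vessels. The other 19 were Ccl1, Ccl11, Ccl21a, Ccl22, Ccl24, Cxcl12, Cxcl14, Ccr3, Ccr4, Ccr6, Ccr7, Ccr8, Ccr10, Cxcr1, Cxcr3, Cxcr5, Cx3cr1, Xcr1 and Ackr2. Absence cannot be read from these values, since the depth is unknown.

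Genes around the chemokine system were counted from lists of related functions, and each share called stands beside 12.3% of all tested genes called, 6.6% higher and 5.7% lower. Among chemoattractants and receptors outside the naming scheme, 7 of 12 were tested and 28.6% of these were called. Rarres2, which encodes chemerin, rose to 30.3 FPKM in TMX, against 5.04 FPKM in con (q-value 0.00112), and Cd74, a receptor subunit for MIF and the class II invariant chain, fell to 37.7 FPKM in TMX, against 300.3 FPKM in con (q-value 0.00112), per the authors' deposited table. Of 5 tested receptors for formyl peptides, complement and other attractants, Fpr1 alone was called (20%), higher, at 0.656 FPKM in TMX and listed at 0 in con per the authors' deposited table. Of 27 tested genes of receptor signalling and desensitisation, 2 rose and none fell, a share of 7.41% that was below the 12.3% of all tested genes. The regulator Rgs1 was at 18.6 FPKM in TMX and 5.55 FPKM in con, and the myeloid kinase Fgr at 1.73 FPKM in TMX and 0.425 FPKM in con, per the authors' deposited table.

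Of 6 tested proteases that trim chemokines, 2 were called lower in TMX and none higher (33.3% called): Dpp4, which clips CXCL10 and CXCL11 among others, at 89.7 FPKM in TMX and 377 FPKM in con (q-value 0.00112), and Anpep, aminopeptidase N, at 212 FPKM in TMX and 714 FPKM in con (q-value 0.0307), per the authors' deposited table. Both are also brush border enzymes of mature enterocytes. Of 11 tested genes for the glycosaminoglycans that hold chemokines, 1 was called (9.09%, below the 12.3% of all tested genes), the glypican gene Gpc4, which was lower, at 3.70 FPKM in TMX and 8.09 FPKM in con per the authors' deposited table.

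Of 14 tested homing and adhesion genes, 5 rose and none fell (35.7% called, against 12.3% of all tested genes). The authors' deposited table lists the leukocyte integrin genes Itgam at 8.85 FPKM in TMX and 1.94 FPKM in con and Itgb2 at 10.95 FPKM in TMX and 1.73 FPKM in con. It lists their partner Icam1 at 3.17 FPKM in TMX and 0.908 FPKM in con and Vcam1 at 1.39 FPKM in TMX and 0.160 FPKM in con. Of 17 tested upstream cytokines and transcription factors, 4 rose and 1 fell (29.4% called). Tnf was at 4.08 FPKM in TMX and 0.348 FPKM in con, and Nfkb2 at 8.60 FPKM in TMX and 3.30 FPKM in con, per the authors' deposited table. Rel was at 3.30 FPKM in TMX and 1.41 FPKM in con, and Stat2, which carries interferon signals to the nucleus, at 81.5 FPKM in TMX and 34.6 FPKM in con, per the authors' deposited table. The gene that fell was Irf1, an interferon-induced transcription factor, at 59.8 FPKM in TMX and 132 FPKM in con per the authors' deposited table.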

How the data were processed

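RNA-seq of 3 Adar iΔgut and 3 Adar fl/fl ileal crypt libraries was analysed from a single table. The submitters' processing notes name STAR, Cufflinks and build GRCm38, without versions. Per the file headers, the authors deposited 1 FPKM value per gene for con and 1 for TMX, with a p-value and q-value. The deposited log2 fold change equals log2((TMX + 1)/(con + 1)), and the deposited q-value equals the Benjamini-Hochberg value over 15762 tested genes, both recomputed. Another 39624 genes were untested and 60 had an excess-data status, none of them members. The lowest p-value, 5e-05, was shared by 704 genes, 8 of them members. With no value per library, no new test was made, as planned for that case: the authors' calls (q-value under 0.05) were counted. The sources used here do not say whether all 6 libraries entered that test, or whether replicates labelled biological were separate mice. It is therefore unknown what replication the p-values rest on.

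Members, 15 lists of cell type markers and related genes, groupings and motifs were chosen with earlier results of these data known. The motif patterns were changed once after a first scan of the windows. All tested members were named except 1, untested ones from 0.5 FPKM, and up to 4 called genes per list by lowest q-value. That member and a gene of a list of related genes count in the totals and are not reported here. Of 216 list entries, 2 were not in the table. All 61 member identifiers matched GENCODE vM21 (GRCm38), which gave 1-based coordinates and biotypes. For 10 of the 31 tested members the deposited locus was wider than the gene, and no source used here gives strandedness, so reads of overlapping genes on opposite strands may be shared. The adjustment was tested on simulated p-values. Python 3.11.15, pandas 2.3.3, numpy 2.4.6, scipy 1.17.1 and matplotlib 3.10.9 were used.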

Additional observations from a re-analysis of the deposited data

How the results depend on the processing

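The count of members called higher in TMX stayed between 8 and 14 over the alternatives, against 12 as reported, and never moved by over 1.5 times. The share of all genes called in either direction moved with the setting. It was 12.3% as reported, 7.35% at a q-value threshold of 0.01, 15.3% over protein-coding genes and 2.32% with no filter on low values. It was 12.7% at a mean FPKM of at least 1, 22.8% at an unadjusted p-value under 0.05 and 10.3% with at least a 2-fold change. The count called lower was 4 as reported and 2 both at a q-value threshold of 0.01 and with no filter on low values, where 55386 genes entered the adjustment. Ccl25 and Cx3cl1 were lost in both settings. With no filter, 5 calls in all were lost (Ccl25, Cx3cl1, Cxcl10, Cxcr2 and Ackr3), and the larger number of genes adjusted over is the difference between the settings. Over protein-coding genes alone the count higher was again 12, with Cxcr4 gained at an adjusted p of 0.0441 from the authors' p-values and Cxcl11, a polymorphic pseudogene, outside the genes adjusted over. Leaving out the 4 members listed at 0 in con, a choice made after seeing the data, left 8 called higher.

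The median log2 fold change of the tested members was 1.21 as reported, 2.44 at a pseudocount of 0.1, 2.80 at 0.01 and 0.10 over all 61 members, tested or not, many of which are at or near 0. The median of all tested genes was 0.07 at both smaller pseudocounts. A pseudocount cannot change a direction. All 31 directions held after rescaling TMX to a median of 0 over all tested genes. No paired analysis was possible because the table holds no value per library, and leaving out single replicates was not run for the same reason. Depth is unknown, which limits what can be said of the low values.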
